A study of Mus musculus with 6 samples.

Results

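Hotspot host genes are genes with many different listed circRNAs in the mouse aorta. They were chosen by the number of their listed circRNAs, as host symbols with at least 12 distinct circRNA names in the union of 6 libraries, a name being 1 combination of chromosome, start and end. The symbols of ribosomal and other abundant structural RNAs (Rn45s, Rpph1, Rmrp), circRNAs with no host symbol and the mitochondrial chromosome were left out. This gave 122 hosts among 7044 eligible symbols, with 2094 of the 20532 listed circRNAs. The number of names per host was therefore fixed by the choice and is described without a test. Lengths of circRNAs in bp are genomic spans from start to end, with any introns included.

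A circRNA arises by back-splicing, when the splicing machinery joins the 3′ end of an exon to the 5′ end of the same or an earlier exon of one transcript. A gene can give several circRNAs when different pairs of splice sites are joined, and such isoforms can share an end, lie inside each other or lie in separate parts of the gene. A read across the join (a junction read) is the evidence for a circRNA used here. Whether each listed name is a circle was not tested. Smooth muscle cells are a main cell type of the aortic wall and express contractile and adhesion genes strongly.

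Aortae were taken from C57BL/6J wild type mice on chow, from ApoE-/- mice on chow and from ApoE-/- mice given a high-fat diet from 3 months of age for 3 months, with 2 libraries in each of the 3 groups. All groups carry the strain label C57BL/6, and mice lacking apolipoprotein E, a ligand for lipoprotein uptake, are a common model of atherosclerosis. The deletion is not restricted to a cell type, the age of the chow groups and the number of animals per library are not given in the sources used here, and the p-values below measure the spread between these libraries, which may be technical. Whole aorta is a mixture, so fewer cells of a type and less RNA per cell cannot be told apart in any result below.

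The libraries held between 69130844 reads, in C57BL/6J 2, and 77352690 reads, in ApoE-/- chow 1. Junction reads ran from 3706 in C57BL/6J 2 to 34805 in high-fat 1. Hotspot hosts took 10.6% of the junction reads in C57BL/6J 2 and between 14.5% and 16.2% in the other 5 libraries. In the table of ApoE-/- chow 1 the column names are those of a C57BL/6J sample; its label was kept, and results without it are given. Apoe, the deleted gene, is listed only through a circRNA interval, which had 176 and 140 reads in wild type, 128 and 86 in chow-fed ApoE-/- and 78 and 75 in high-fat aortae, so it is no full check of the genotype. The summed level of 7 listed smooth muscle markers was 48.5 RPM (reads scaled to library size) in C57BL/6J 2 and between 126 and 191 RPM in the others, and that of 4 listed macrophage markers was 2.42 to 5.26 RPM on chow against 11.9 and 11.1 RPM on the high-fat diet. The macrophage-defining genes Cd68, Adgre1 and Csf1r had no listed interval, and the part of these markers in the results below was not tested.

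Sequence could be read at 17 of the 4188 member ends, those within a promoter window of any gene in RefSeq (GRCm38.p6), which covers 250 bases before to 50 bases after a gene start. The windows below show the letters at such ends. Each is 30 bases long, 5′ to 3′ on the transcribed strand, with capitals for the 2 letters that touch the circRNA from outside, where a splice site has AG before a 5′ end or GT after a 3′ end. The first 5 belong to well-counted ends and the last 2 to ends seen with 1 read.
Crim1 3′ end, plus strand, chr17:78281352-78281381: taccctgccagcaagGTtggttcggcaccc
Ncor1 5′ end, minus strand, chr11:62438501-62438530: ttctgttctatgtAGgttgcttcctagaaa
Ttc7b 5′ end, minus strand, chr12:100495426-100495455: tctttttccttctAGtcagaattcctacaa
Ttc7b 3′ end, minus strand, chr12:100495257-100495286: cctatgcaaccaaagGTgagtgccctcccc
Hdac9 3′ end, minus strand, chr12:34214996-34215025: ccttgaagcgttcagGTtggtacttctttc
Pde5a 5′ end, plus strand, chr3:122728944-122728973: tggagtccttctaGCcttggccacttggct
Ralgapa2 5′ end, minus strand, chr2:146512079-146512108: tcgcatcgacaccGCcttcctgccccgccc

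The Crim1 end was used by 2 circRNAs with 131 junction reads together, the Ncor1 end by 2 with 39 reads, and the Hdac9 end by 3 with 16 reads. Crim1 is a transmembrane protein that binds bone morphogenetic proteins, Ncor1 is a nuclear receptor corepressor and Hdac9 is a histone deacetylase. The 17 ends lie at 11 distinct positions, an end being counted for each circRNA that uses it, so that some positions count in more than 1 read class. Of the 17 ends, 15 had AG or GT in the place where a splice site has them. All 7 ends of circRNAs with at least 5 reads and all 4 with 2 to 4 reads had these letters, against 4 of 6 with 1 read; the Pde5a and Ralgapa2 windows have GC there. Over all 189 eligible ends with a window the counts were 48 of 48, 65 of 76 and 45 of 65. Over all positions of all promoter windows, read on the strand of their gene, AG stood at 7.69% and GT at 4.98%. A match is a description of the letters and does not show that the site was used.

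The hosts with the most names were of several kinds. Flna, the actin cross-linker filamin A, had 72 names, and Ahnak, a giant scaffold protein, had 66. Malat1, a nuclear long noncoding RNA, had 42. Itga8, an integrin alpha subunit, and Myh11, the smooth muscle myosin heavy chain, had 35 each. Itga9, another integrin, and Dmd, dystrophin, had 32 each, the focal adhesion protein Tns1 had 31, the TGF-beta-binding matrix protein Ltbp1 had 30, the microfibril-associated Thsd4 had 29 and the dystrophin relative Utrn had 28. The symbol fantom3_B020001O14 had 33 names, which lay over 27547341 bp of chromosome 13 with no end in common, and it was not found in the RefSeq table used here.

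Many names did not mean many reads. Flna had 188 junction reads over the 6 libraries, Ahnak 134 and Malat1 80, so that a name had a mean of 2.61, 2.03 and 1.90 reads. Itga8 had 681 reads for 35 names. The most read hosts had far fewer names: Elf2, an ETS-family transcription factor, had 1174 reads on 13 names, Arhgap10, a GTPase-activating protein, 827 on 20, and Pdlim5, an actin-associated adaptor, 711 on 15. Across the 122 hosts the Spearman correlation of names with reads was 0.35 and, over 121 hosts, that of names with gene length was 0.094. These are descriptions: the hosts share libraries, and names and reads come from the same counts. Genes with more names were thus only loosely the genes with more reads, and hardly the longer genes within this set. The set was cut at 12 names, so these correlations do not cover hosts with fewer names. Median gene length was 199130 bp in hotspot hosts and 122626 bp in hosts with 6 to 11 names. Median junction reads were 87 and 31.

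**Figure D1:**
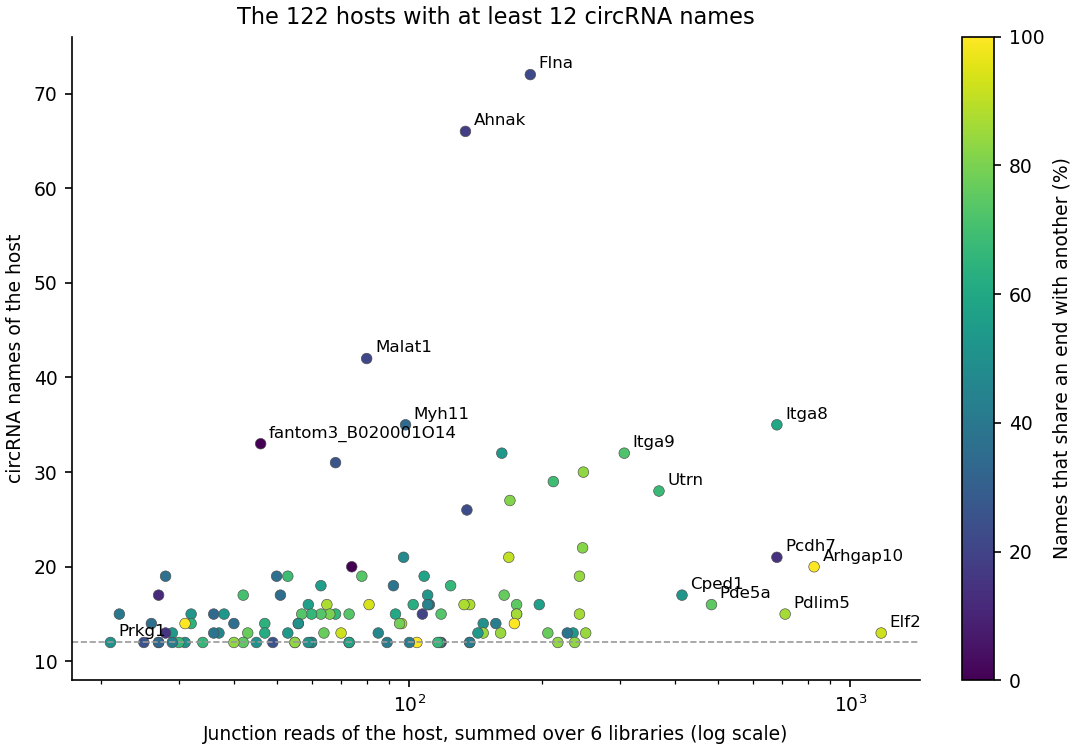
Each point is 1 of the 122 hosts, with its junction reads over 6 libraries (x, log scale) against its number of circRNA names (y), coloured by the share of its names that have an end in common with another name; the dashed line is the limit of 12 names. Flna and Ahnak stand at the top with 188 and 134 reads, whereas Elf2, with 1174 reads, has 13 names.

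At the limit, 29 hosts had exactly 12 names, with 21 to 237 junction reads and a median of 59; among the most read were Ptgis, Ppp1r12a, Rbpms and Ttc28. Just outside, 33 hosts had 11 names, with 20 to 999 reads and a median of 46, led by Arhgap32, Ncoa2, Phkb, Oxct1 and Dtnb. The most read isoform held a median of 34.2% of reads in the first set and 38.0% in the second. The values on the inner and outer side of the limit overlapped. Names were counted over all libraries, and the deepest library gave the most: without high-fat 1, 55 hosts would still have had 12 names with a junction read, and without C57BL/6J 1, 77.

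Of the lists of gene groups used, the list of smooth muscle contraction and cytoskeleton genes had the highest share of hotspot hosts, 20 of its 52 genes with a listed circRNA (38.5%), against 1.73% of all eligible symbols. They include Acta2 (smooth muscle actin), Mylk (myosin light chain kinase), Actn1, Vcl, Myh9, Myh10, Cacna1c (the L-type calcium channel) and Prkg1 (the cGMP-dependent protein kinase). The shares were 12 of 56 for widely reported circRNA hosts, 7 of 54 for chromatin genes such as Chd2 and Arid1b, 10 of 93 for kinases and GTPase regulators such as Trio and Ptk2, 5 of 55 for ubiquitin ligases and proteases, 5 of 56 for splicing and RNA-binding factors such as Mbnl1 and Celf2, 4 of 48 for extracellular matrix genes (Ltbp1, Fn1, Eln, Hspg2) and 3 of 58 for transcription factors (Foxp1, Elf2, Etv6). The lists hold well-known, often long or highly expressed genes, they overlap, and they were written with results of these data known, so these shares are descriptions.

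Most isoforms of these genes were rare. Of the 2094 circRNAs, 693 (33.1%) had 1 junction read in all and 1578 (75.4%) had reads in 1 library only. Among the 16235 circRNAs of the other eligible hosts these shares were 36.2% and 78.9%. Only 39 hotspot circRNAs, of 29 hosts, had a read in all 6 libraries, and 24 of these 39 were the most read isoform of their host. Itga8 and Itga9 had 3 such circRNAs each, and 6 other hosts had 2, Arhgap10, Cacna1c, Crim1, Elf2, Pde4dip and Rbpms.

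Detection followed depth. High-fat 1, with 5064 junction reads on these hosts, showed 931 of the circRNAs. In no other library were 537 of these seen, which is 25.6% of all 2094 hotspot circRNAs. C57BL/6J 2, with 392 reads, showed 154, and C57BL/6J 1, ApoE-/- chow 1, ApoE-/- chow 2 and high-fat 2 showed 651, 410, 502 and 530. At an equal depth of 392 reads the expected number was 201, 154, 187, 206, 216 and 203 in C57BL/6J 1 and 2, ApoE-/- chow 1 and 2 and high-fat 1 and 2. At equal depth 5 of the libraries lay within 187 to 216, and C57BL/6J 2 lay below them. Both libraries of a group shared 61 circRNAs in C57BL/6J, 126 in chow-fed ApoE-/- and 235 in high-fat aortae. Of these, 1, 10 and 40 had no read in any other library, with depth differing as above. The same counts over all listed circRNAs were not taken, so these do not set hotspot hosts apart.

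The most read isoform of a hotspot host held a median of 34.8% of the host's junction reads, with a range of 5.97% to 93.0%. It held more than 50% in 31 hosts and under 20% in 20. In the 587 hosts with 6 to 11 names the median was 40%; a share over more names is bound to be lower, so the 2 medians are not compared further.

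Some hosts were dominated by 1 circRNA. Pcdh7, a protocadherin, had 633 of its 681 reads (93.0%; 95% Wilson interval 90.8% to 94.6%) on 1 circRNA of 29107 bp, at chromosome 5, 57913156 to 57942262, and its other 20 names shared the remaining 48 reads. That circRNA had 232 and 0 reads in wild type, 163 and 0 in chow-fed ApoE-/- and 132 and 106 in high-fat aortae, so it was at 0 in 1 library of each chow group. Cped1 had 88.0% of 415 reads on its top isoform, the RNA-binding repressor Samd4 87.1% of 147, the insulin receptor Insr 82.3% of 175 and the histone methyltransferase Ehmt1 78.6% of 243. Utrn had 72.0% of its 368 reads on 1 circRNA although it had 28 names.

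At the other end no isoform stood out. The top isoform held 5.97% of the reads of Ahnak, 6.25% of Malat1, 6.52% of fantom3_B020001O14, 7.41% of Dst, a cytoskeletal linker, and 10.6% of Flna. In Malat1 each of the 42 names was seen in 1 library only, and in Ahnak 63 of 66 and in Flna 66 of 72. The top Flna circRNA lay at chromosome X, 74227665 to 74228828. It had 0 reads in the 4 chow libraries and 12 and 8 reads in the high-fat libraries. Only the high-fat libraries brought it to the minimum of the tests below, which it did not pass.

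**Figure D2:**
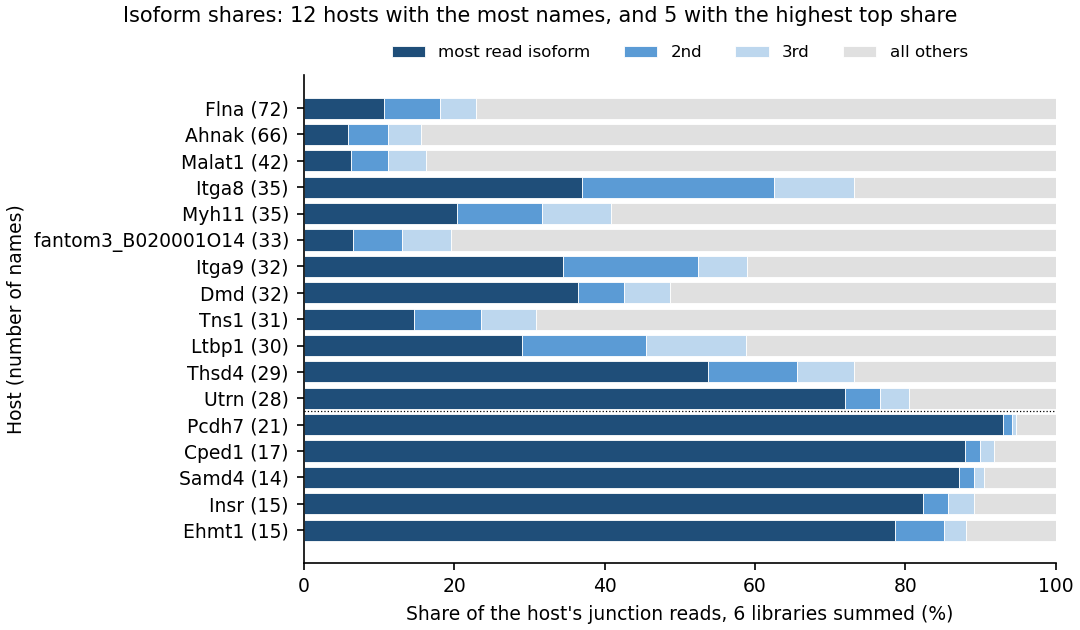
Stacked bars give the share of each host's junction reads (x, percent, 6 libraries summed) held by its most read, 2nd and 3rd isoform and by all others; numbers in brackets are circRNA names. Above the dotted line are the 12 hosts with the most names, from Ahnak at 5.97% to Utrn at 72.0% on the top isoform, and below it the 5 hosts with the highest top share, 78.6% to 93.0%.

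The isoforms of a host were mostly laid out side by side. Of 21689 pairs of isoforms of the same host, 81.7% lay apart, 11.01% were nested with 1 inside the other, 7.29% overlapped in part, and 6.45% had an end in common. A pair with an end in common is nested by definition and is counted among the nested ones. Even so, 1156 of the 2094 circRNAs (55.2%) had an end in common with at least 1 other. The share was 54.6% in hosts with 6 to 11 names and 41.0% in all eligible hosts with 2 to 11 names. In those hosts there are fewer partners to share with. Among circRNAs with at least 2 reads, 9.14% of pairs had an end in common and 13.7% were nested.

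Hosts in which every name had an end in common with another included Arhgap10, the kinase Taok1 and Bckdhb, a subunit of branched-chain keto-acid dehydrogenase. In Elf2 50% of pairs were nested and in Bckdhb 39.4%. The most used ends served 7 names, in Itga9 and in Etv6, an ETS-family repressor. In 3 symbols no name had an end in common: Macf1, a cytoskeletal cross-linker, Hspg2, the basement membrane proteoglycan perlecan, and fantom3_B020001O14.

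Arhgap10 and Flna show the opposite layouts. The 20 circRNAs of Arhgap10 used 8 left ends over 110017 bp and had a median span of 27391 bp, and 44.2% of its pairs lay apart, with 27.9% nested and 27.9% overlapping in part. The 72 circRNAs of Flna used 65 left ends and 70 right ends within 22899 bp, had a median span of 471 bp, and 91.7% of their pairs lay apart. Arhgap10 had 2 names with 1 read and Flna had 25.

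**Figure D3:**
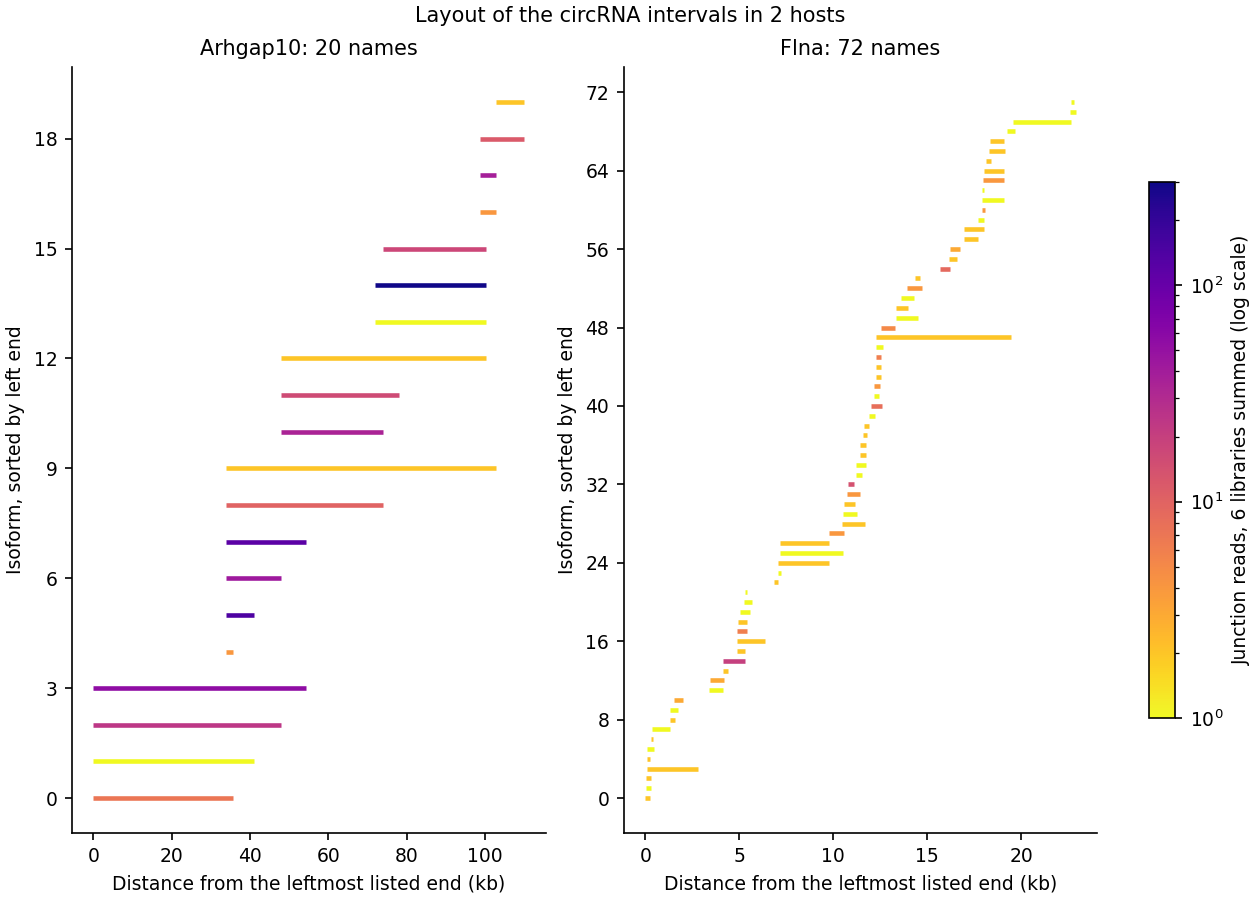
Each line is 1 circRNA interval of Arhgap10 (left) or Flna (right), placed by its distance from the leftmost listed end (x, kb), sorted by left end (y) and coloured by its junction reads over 6 libraries (log scale). The Arhgap10 intervals start from 8 left ends and reach up to 68988 bp, whereas the Flna intervals form a staircase of short separate intervals with a median of 471 bp.

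Across the 122 hosts, those with longer circRNA intervals had more ends in common. The Spearman correlation of the median span with the share of names that had an end in common was 0.74. It was 0.46 with reads per name, -0.55 with the share of names seen in 1 library, and -0.34, over 103 hosts, with the level of interval reads per kb in circRNAs that no other listed interval overlaps. In the 30 hosts with the lowest such level, a median of 65.5% of names had an end in common and the median span was 7827 bp; in the 30 with the highest it was 38.7% and 1626 bp. Malat1, Myh11, Fn1 and Tns1, with 10.05 to 18.1 RPM per kb, are among the high group. Hosts with a high level of interval reads per kb thus had shorter circRNA intervals with fewer ends in common, as a description over hosts that share 6 libraries. The level divides reads by the span, and a circRNA that no other interval overlaps shares no end. The link is therefore in part built in, and its cause was not tested. The median span of all hotspot circRNAs was 3761.5 bp, with a range of 60 to 97910 bp.

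Some isoforms differed by a few bases. In 10 pairs, in 9 hosts, 1 end was the same and the other lay 3 bases (6 pairs) or 4 bases (4 pairs) away. The main Elf2 circRNA, from 51308050 to 51326035 on chromosome 3, had 208 and 15 reads in wild type, 69 and 99 in chow-fed ApoE-/- and 299 and 206 in high-fat aortae. A form whose right end lay 3 bases to the left had 9 and 0, 0 and 0, and 40 and 0 reads, so 40 of its 49 reads came from high-fat 1. In Klc1, kinesin light chain 1, the 2 most read isoforms shared a left end and differed by 27 bases at the right end; they had 38 and 24 reads.

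Isoform choice by library was compared in libraries with at least 10 junction reads for the host, 427 pairs of host and library. In 301 of them (70.5%) the most read isoform was that of the 6 libraries summed, a comparison in which the library itself counts toward the sum. The share was 77.4% of 93 hosts in C57BL/6J 1, 73.5% of 68 and 67.6% of 71 in ApoE-/- chow 1 and 2, and 70.5% of 105 and 63.4% of 82 in high-fat 1 and 2; C57BL/6J 2 had only 8 such hosts. Of 99 hosts with at least 2 such libraries, 32 had the same top isoform in each of them and 25 hosts had 3 or more different ones.

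Elf2, Itga8 and Pdlim5 kept the same top isoform in all 6 libraries. The main Elf2 circRNA held 76.5% and 62.5% of Elf2 reads in wild type, 81.2% and 85.3% in chow-fed ApoE-/- and 71.5% and 79.5% in high-fat aortae. The main Itga8 circRNA, from 12242411 to 12253578 on chromosome 2, held 39.5% and 52.2%, 46.5% and 36.8%, and 32.3% and 29.2% in the same order. Its share was lower in both high-fat libraries than in any chow library and the difference did not pass the test of isoform share below.

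Other hosts changed their top isoform from library to library. Flna, Ahnak and Malat1 had 5 different tops each, and Ckap5, which promotes microtubule growth, Dock1, a Rac activator, and Klc1 had 4. In Cacna1c, 2 circRNAs far apart in the gene took turns. The first, from 119052601 to 119057515 on chromosome 6, had 24 and 1 reads in wild type, 8 and 24 in chow-fed ApoE-/- and 38 and 9 in high-fat aortae; the second, from 118776417 to 118780324, had 13 and 10, 17 and 13, and 18 and 13. Each led in 3 libraries, 1 from every group, so the lead did not follow the groups.

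**Figure D4:**
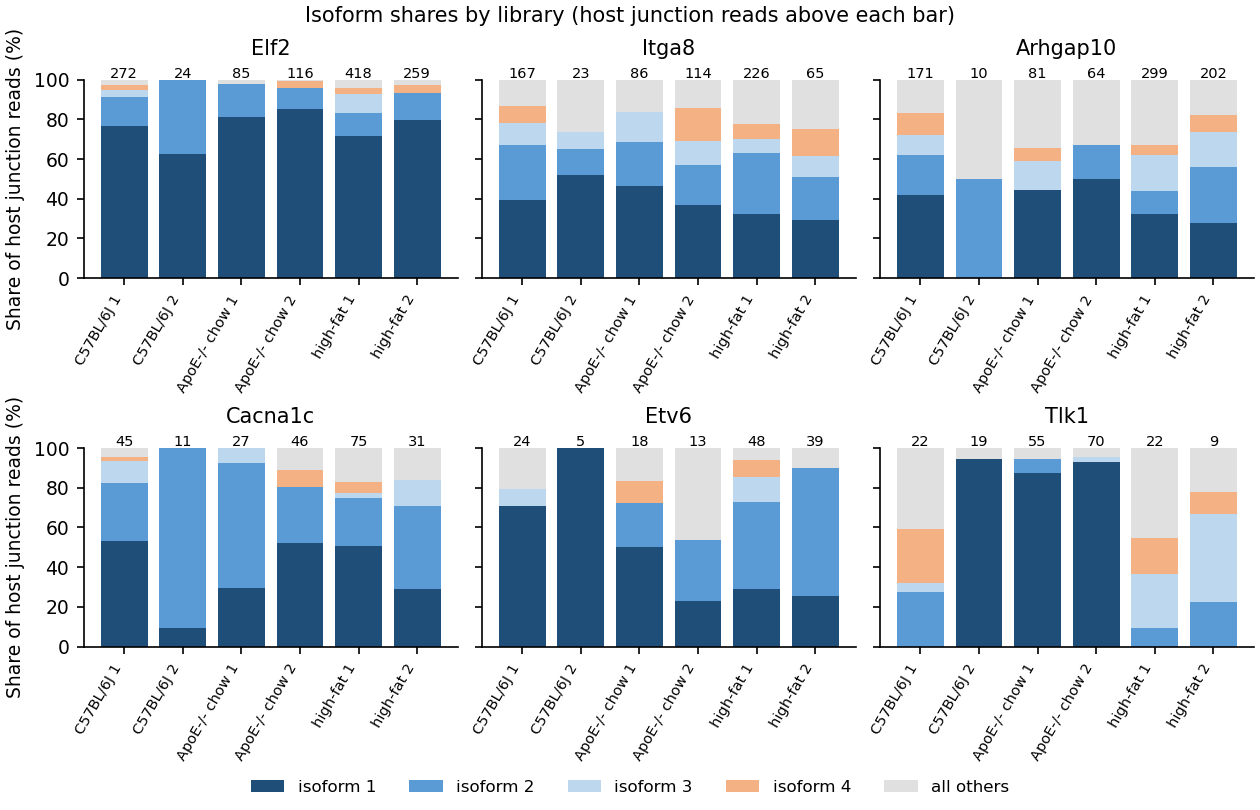
Stacked bars give, for 6 hosts and each library, the share of host junction reads (y, percent) held by the 4 most read isoforms and by all others, with the host's junction reads above the bar. Elf2 and Itga8 keep isoform 1 on top in every library, Cacna1c alternates between isoforms 1 and 2, isoform 2 of Etv6 is at 0 in both C57BL/6J libraries and at 43.8% and 64.1% in the high-fat libraries, and isoform 1 of Tlk1 is at 0 in C57BL/6J 1 and both high-fat libraries.

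The groups were compared with edgeR's quasi-likelihood test on all 6 libraries, adjusted by the Benjamini-Hochberg method over everything tested. The comparisons were the high-fat group against both chow groups, the high-fat group against ApoE-/- chow, and ApoE-/- chow against C57BL/6J; they share libraries. At least 5 junction reads in at least 2 libraries were needed, which 148 of the 2094 circRNAs and 119 of the 122 hosts reached. A circRNA that reached this through 1 group alone was bound to look uneven, so the tested ones do not stand for all 2094.

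A single hotspot circRNA passed the threshold. It came from Tlk1, a Tousled-like kinase that acts in chromatin assembly, at chromosome 2, 70768862 to 70786995, and held 66.5% of the host's reads. It had 0 and 18 reads in wild type, 48 and 65 in chow-fed ApoE-/- and 0 and 0 in high-fat aortae. It was at least 26.4-fold lower in the high-fat group than in ApoE-/- chow (edgeR adjusted p = 0.00049) and at least 20.5-fold lower than in both chow groups (edgeR adjusted p = 0.000978), set against a floor of 3 reads per library. The circRNA reached the minimum of 5 reads only through chow libraries, where it was high, and ApoE-/- chow alone was enough. It was thus bound to look uneven. Its C57BL/6J level rested on 18 reads in C57BL/6J 2, the library with the fewest junction reads. C57BL/6J 1 was also at 0, so the high-fat group and C57BL/6J overlapped. It was 1 of 1 call among 1015 circRNAs tested in each of these comparisons, 0.0985%. The call was lost with a minimum of 10 reads, with scaling to total reads, with DESeq2 and without either high-fat library, and against both chow groups also without C57BL/6J 2; adjusted p over 12 alternatives ran from 0.00142 to 1.00 against both chow groups and from 8.24e-10 to 1 against ApoE-/- chow.

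The sum over all Tlk1 circRNAs was 22 and 19 reads in wild type, 55 and 70 in chow-fed ApoE-/- and 22 and 9 in high-fat aortae and did not pass (log2 fold change -2.76, SE 0.81, edgeR adjusted p = 0.274 against ApoE-/- chow). The other Tlk1 isoforms were too rare for the test of isoform share. In the 3 libraries that had the circRNA it held 94.7%, 87.3% and 92.9% of Tlk1 reads. High-fat 1 and C57BL/6J 1 had 22 Tlk1 reads each, all on other isoforms.

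The next circRNAs by p did not pass. A Pdlim5 circRNA at chromosome 3, 142303943 to 142352885, had 46 and 0, 0 and 19, and 0 and 0 reads in wild type, ApoE-/- chow and high-fat aortae (edgeR adjusted p = 0.262 against both chow groups). The most read Dmd circRNA, at chromosome X, 83375059 to 83381357, had 36 and 0, 17 and 6, and 0 and 0 (edgeR adjusted p = 0.276). An Etv6 circRNA, at chromosome 6, 134115220 to 134137417, had 0 and 0, 4 and 4, and 21 and 25 (log2 fold change 4.68, SE 1.69, edgeR adjusted p = 0.479). A Ckap5 circRNA had 0 reads in every chow library and 6 and 12 in the high-fat libraries (edgeR adjusted p = 0.635). For Etv6 and Ckap5 the high-fat libraries lay above all chow libraries. Both circRNAs reached the minimum of 5 reads in the high-fat libraries only, so this separation follows from the minimum. For Pdlim5 and Dmd the groups overlapped at 0, and both reached the minimum in chow libraries only.

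**Figure D5:**
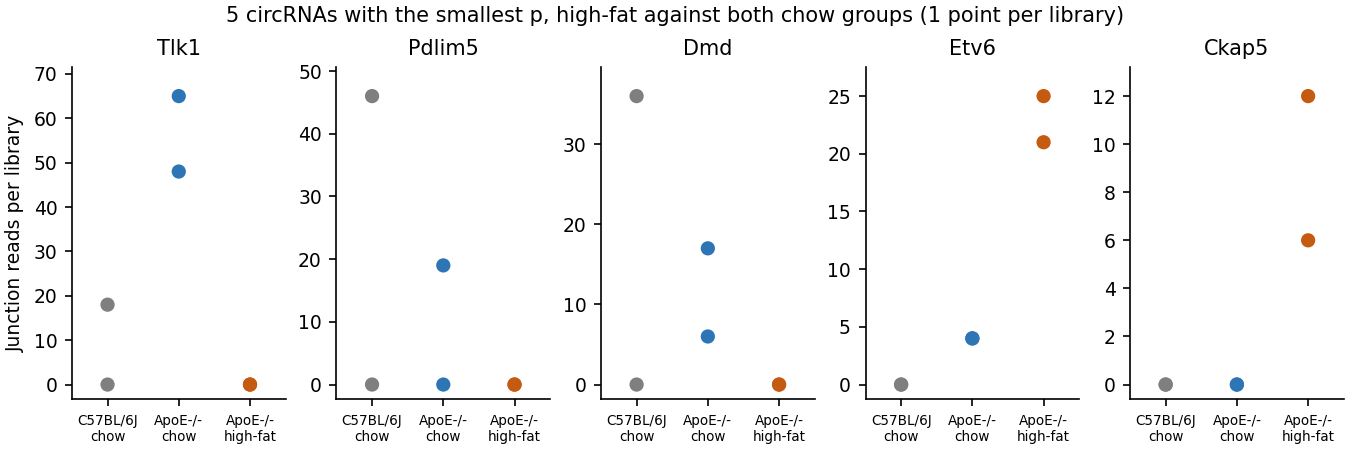
Junction reads per library (y, a separate scale per panel) of the 5 hotspot circRNAs with the smallest p for high-fat against both chow groups, 1 point per library and 2 libraries per group; points at the same value cover each other. Tlk1, which passed, is at 0 in both high-fat libraries and in C57BL/6J 1, and Etv6, which did not pass, is at 21 and 25 in the high-fat libraries.

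Between ApoE-/- chow and C57BL/6J no hotspot circRNA passed, and no circRNA at all (0% of 1015); 7 of the 148 (4.73%) had an unadjusted p under 0.05 in edgeR, beside 5.52% of all circRNAs tested, and DESeq2 called 0. The smallest p belonged to a Bckdhb circRNA with 20 and 0 reads in wild type, 0 and 0 in chow-fed ApoE-/- and 37 and 9 in high-fat aortae (edgeR adjusted p = 0.799), and to a circRNA of the cohesin subunit Stag1 with 19 and 0, 0 and 0, and 13 and 8 (edgeR adjusted p = 0.799). The counts at an unadjusted p under 0.05 were 11 for high-fat against both chow groups and 10 against ApoE-/- chow, 7.43% and 6.76% of the 148, beside 6.31% and 5.32% of all circRNAs tested. The median log2 fold change of the 148 was 0.39 against both chow groups, 0.19 against ApoE-/- chow and 0.10 for ApoE-/- chow against C57BL/6J, beside 0.55, 0.19 and 0.19 over all circRNAs tested.

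No hotspot host passed on its summed junction reads in any of the comparisons, where 0.158%, 0.0792% and 0% of 1262 hosts passed; 4, 3 and 0 of the 119 had an unadjusted p under 0.05 in edgeR (3.36%, 2.52% and 0%, beside 5.63%, 4.36% and 4.04% of all hosts tested), and DESeq2 called 0 of them. Pde5a, the phosphodiesterase that degrades cGMP, had 86 and 0 reads in wild type, 31 and 45 in chow-fed ApoE-/- and 206 and 116 in high-fat aortae (log2 fold change 1.61, SE 0.57, edgeR adjusted p = 0.37 against both chow groups). Arhgap10 had 171 and 10, 81 and 64, and 299 and 202 reads (log2 fold change 1.19, SE 0.52, edgeR adjusted p = 0.696). In both hosts the high-fat libraries had more reads than any chow library. By all junction reads high-fat 1 was the deepest library (34805) and C57BL/6J 2 the shallowest (3706), while high-fat 2 (16511) was shallower than C57BL/6J 1 (26605). The fold changes are scaled for library size.

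Isoform share within a host was tested with edgeR's diffSpliceDGE on 105 hotspot circRNAs whose host had at least 2 circRNAs with enough reads. None passed in any of the comparisons, and none of all 362 circRNAs so tested (0%); 5, 3 and 3 of the 105 had an unadjusted p under 0.05 (4.76%, 2.86% and 2.86%, beside 3.87%, 2.76% and 2.76% of all 362), and the alternative of 1 p per host called 0. The smallest p was that of the Pdlim5 circRNA above, which made up 18.04% of the Pdlim5 total of C57BL/6J 1 and 18.6% of that of ApoE-/- chow 2, with 0 reads in the other 4 libraries (adjusted p = 0.361 in edgeR against both chow groups). For the Etv6 circRNA the share was 0% of 24 reads in C57BL/6J 1, 22.2% and 30.8% in chow-fed ApoE-/- and 43.8% and 64.1% in high-fat aortae (adjusted p = 1.00 in edgeR), while the most read Etv6 circRNA held 70.8%, 50% and 23.1%, and 29.2% and 25.6%. C57BL/6J 2 had 5 Etv6 reads, all on the most read isoform. Both Etv6 circRNAs end at the same base, 134137417, and differ in their left end.

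Interval reads, the deposited count minus the junction reads, come from linear and intronic RNA as well and were summed per host. No hotspot host passed, of 121 tested, beside 0.049%, 0% and 0% of 6122 hosts; 1, 1 and 2 of the 121 had an unadjusted p under 0.05 in edgeR (0.826%, 0.826% and 1.65%, beside 2.89%, 2.04% and 2.61% of all hosts tested), and DESeq2 called 0 of them. Fn1, fibronectin, had 1514 and 711 interval reads in wild type, 2849 and 2744 in chow-fed ApoE-/- and 2889 and 4984 in high-fat aortae (log2 fold change 1.04, SE 0.44, edgeR adjusted p = 1.00 against both chow groups). All 4 ApoE-/- libraries lay above both C57BL/6J libraries. Without C57BL/6J 1, 11 hotspot hosts passed for high-fat against both chow groups, beside 103 of all 6050 hosts tested (1.7%). They were Fn1, Flna, Malat1, Mylk, Acta2, Ahnak, Pkd1, Plec, Adcy5, Myh9 and Eef2. The C57BL/6J group was then C57BL/6J 2 alone, where the summed smooth muscle markers were lowest. That sum includes the interval reads of Acta2 and Mylk, so it is not independent of these calls.

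The interval reads also show a property of the tables that bears on these hosts. Of the 423 hotspot circRNAs that no other listed interval overlaps, 0 had no interval reads, whereas 63.6% of the 1671 overlapped ones had none. Of the Arhgap10 circRNAs, 90% had none. Reads shared by overlapping intervals thus appear to have been left out of the count column, so interval reads of hosts with nested circRNAs are too low, and were compared between hosts only through circRNAs that are not overlapped.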

How the data were processed

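Per the file headers, each deposited table lists circRNAs by position and host symbol with a count, an RPM and a junction column. The deposited counts are whole-number read counts of the circRNA interval and of its junction. The deposited RPM is that count scaled to the library total, and here it gave the library totals. Per the submitters' processing notes, TopHat, HTSeq and GRCm38 (mm10) were used; the program that called back-splice joins and any strand setting are not given in the sources used here. Depth per library is given in the report, and intervals (95% Wilson) and floors (3 reads) cover counting error only.

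Symbols were matched to the RefSeq table of GRCm38.p6 for gene length, 117 by symbol and 4 by synonym of 122. Exons were not analysed here. Junction reads per circRNA and per host, their share within the host, and interval reads per host were tested with edgeR 4.0.16 (R 4.3.3, TMM scaling, robust quasi-likelihood fit, diffSpliceDGE for shares), with a threshold of 0.05 on the Benjamini-Hochberg adjusted p. All 6 libraries shared 1 estimate of the spread. At least 5 junction reads, or 10 interval reads, in at least 2 libraries were required. Standard errors were derived from the log2 fold change and the F value (their ratio with the square root of F). The alternatives were other minimums and scalings, DESeq2 1.42.0, a replicate block, other host limits and leaving out each library. The steps were run on simulated data with an equal mean depth in all 6 libraries. The real libraries differ in depth, so that run does not show how the tests perform on them.

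The members, gene lists and tests were chosen with earlier results of these data known. Named were the 12 hosts with the most names, hosts at the limit of 12, hosts with the highest, lowest and most changing top isoform, list members, and for each test the calls or the 5 smallest p. Other hosts, such as Cacna1c and Taok1, were named after their values were seen. Some hosts that meet these rules are not reported here.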

Additional observations from a re-analysis of the deposited data

How the results depend on the processing

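With a minimum of 10 junction reads, with scaling to total reads and with DESeq2, 0 hotspot circRNAs passed for high-fat against both chow groups and 0 against ApoE-/- chow, where Tlk1 had been the 1 call. Leaving out each library in turn gave 0 to 2 circRNAs in both of these comparisons and 0 to 1 for ApoE-/- chow against C57BL/6J. The second call was the main Pcdh7 circRNA, without ApoE-/- chow 1, when the ApoE-/- chow group was a lone library with 0 reads of it. The calls for ApoE-/- chow against C57BL/6J were Pcdh7 without ApoE-/- chow 1 and Tlk1 without C57BL/6J 2. For host sums the range was 0 to 2 against both chow groups (Tlk1 and Pde5a without C57BL/6J 1) and 0 to 1 against ApoE-/- chow (Tlk1 without C57BL/6J 2). For interval reads it was 0 to 11 for high-fat against both chow groups and 0 to 11 for ApoE-/- chow against C57BL/6J, the 11 in both without C57BL/6J 1, where 103 (1.7%) and 65 (1.07%) of all 6050 hosts tested passed. The circRNA and host-sum counts without a library cover the hotspot set only. Other circRNAs also passed when ApoE-/- chow 1, C57BL/6J 2 or high-fat 1 was left out. Other hosts also passed when ApoE-/- chow 2 or any library of the C57BL/6J or high-fat group was left out. These calls were therefore not particular to hotspot hosts. A lone library was assumed to vary like the others. For isoform share, 0 passed under each alternative run. No called value changed sign under the alternatives run. The cause of each change was not tested.

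Nothing in the labels says that equal replicate numbers mark a shared animal or batch, and deviations of same-numbered libraries correlated at 0.12, -0.14 and -0.0062 over 6122 hosts. The fit with the replicate block called 1, 1 and 0 circRNAs in the comparisons and 0 for host sums, isoform share and interval reads, as without it.

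The median share of the top isoform was 36.5% as a mean over libraries, 37.9% with at least 2 reads per circRNA, 36.4% and 35.3% with host limits of 10 and 15 names, and 33.3% to 37.3% without each library. Without the symbol fantom3_B020001O14, an alternative chosen after seeing the data, it was 35.0%. With at least 2 reads per circRNA, pairs with an end in common rose to 9.14% and nested pairs to 13.7%. The count of hosts by names with a read, also added later, was 77 without C57BL/6J 1, 55 without high-fat 1, and 88 to 109 without each of the others. C57BL/6J 2 had 392 junction reads on these hosts, the fewest of the 6 libraries, and 8 hosts with at least 10.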
